A study of Mus musculus with 19 samples.

Results

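The difference between the genotypes in the fasting response of small intestinal crypts was measured in 19 of the 19 mice of the series. For each gene it is the log2 fold change of fasting in mice lacking neurotensin (NT-/- Fast over NT-/- AL) minus the log2 fold change of fasting in mice with it (NT+/+ Fast over NT+/+ AL), and it is called the interaction below. A value above 0 means a larger increase or a smaller decrease with fasting in NT-/- mice, and a value below 0 means the reverse. The mice were 5 NT+/+ AL, 4 NT-/- AL, 5 NT+/+ Fast and 5 NT-/- Fast, grouped by their titles, where AL is ad libitum feeding and Fast is 48 hours without food but with water. All were adult C57BL/6 mice of both sexes. The paper describes its fed and fasted mice of both genotypes as carrying an Lgr5-EGFP reporter. NT-/- mice lack neurotensin in the whole body and not only in the gut. The fed mice were littermates matched to the fasted ones by sex and age. Crypts of the proximal part of the small intestine gave 1 RNA library per mouse. Replicate 5 of NT+/+ Fast carries the genotype NT-/- in another label (the disputed mouse). Its level of Nts, the neurotensin gene, lay among those of the other NT+/+ Fast mice and above all NT-/- mice, so it was kept by its title. The values that moved most when it was grouped as NT-/- are given beside the results, as a check of the label only.

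Neurotensin is a peptide hormone released by enteroendocrine cells of the small intestine, mostly in response to fat. Crypts are the epithelial pits in which stem cells divide, their progeny amplify, and absorptive enterocytes or secretory goblet, Paneth, enteroendocrine and tuft cells arise. Fasting is known to slow division in crypts and to turn epithelial metabolism from glucose toward fatty acids through PPAR transcription factors.

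The epithelial markers Epcam and Cdh1 averaged 1008 and 1044 CPM (counts scaled to the TMM-adjusted library total) over all mice, and Lyz1, a Paneth cell lysozyme, averaged 6718 CPM. Nts, which encodes neurotensin, was 6.75 to 8.59 CPM in NT+/+ AL, 4.98 to 5.71 CPM in NT+/+ Fast, 0.144 to 0.746 CPM in NT-/- AL and 0.214 to 0.792 CPM in NT-/- Fast mice. The ranges of the genotypes did not overlap. The mouse with disagreeing labels had 5.43 CPM (97 counts), within the NT+/+ range, so its Nts level goes with its title and not with its other label. The interaction of Nts, 1.14 ± 0.50 (SE), or 2.70 with that mouse as NT-/-, rests on 3 to 15 counts per NT-/- mouse. Total counts per mouse were 9059418 to 35068669 (median, 18541770), with the lowest totals in replicates 2 and 4 of NT-/- Fast. Replicate 1 of NT+/+ AL stood apart, with 1.58% of its counts on the mitochondrial rRNA genes against 0.0499% to 0.433% in the other mice and the lowest enterocyte gene level of all, and results are given without it where it matters.

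No gene passed the test of the interaction. Of 17875 genes, 0 were called at an adjusted p under 0.05 (0%, edgeR quasi-likelihood F test, adjusted after Benjamini and Hochberg), and the smallest adjusted p was 0.9998. At an unadjusted p under 0.05 there were 485 genes, 214 above 0 (1.2%) and 271 below 0 (1.52%), where uniformly spread p-values would give 894. With sets of mice taken from the deposited files' names as a block, described below, there were 1013 (5.67%), so the count below 894 depends on the fit. DESeq2 also called 0 genes and gave 458 for the genotype difference at unadjusted p under 0.05. The likelihood ratio test of edgeR called 1 gene, Gm15429, with a mean below 2 CPM. Gm15429 was at 0 in all 5 NT-/- Fast mice and between 0 and 2.04 CPM in the other 14 mice, of which 4 NT+/+ AL mice, 1 NT+/+ Fast mouse and 1 NT-/- AL mouse were also at 0. Its unadjusted p was 0.0001009 by the quasi-likelihood test.

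The design could bound the difference for most genes. Among 13119 genes with a mean of at least 2 CPM, the median standard error of the interaction was 0.17 on the log2 scale, and the 95% interval reached a median of 0.355 to either side, a 1.28-fold difference. For 87.6% of these genes the interval lay within 1 log2 unit of 0, so that a difference of more than 2-fold between the genotypes was outside the interval. Fasting alone changed 2010 genes upward (11.2%) and 1852 downward (10.4%) in NT+/+ mice, and 2242 upward (12.5%) and 2257 downward (12.6%) in NT-/- mice. Of genes called for fasting in the NT+/+ genotype alone, 88 of 930 (9.46%) had an interaction with an unadjusted p under 0.05. Of those called in the NT-/- genotype alone, 179 of 1567 (11.4%) did, beside 2.71% of all genes. A call in 1 genotype alone rests on the same fasting changes that form the interaction, so these shares are raised by the choice of genes. None of these genes passed the test of the difference after adjustment.

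**Figure D1:**
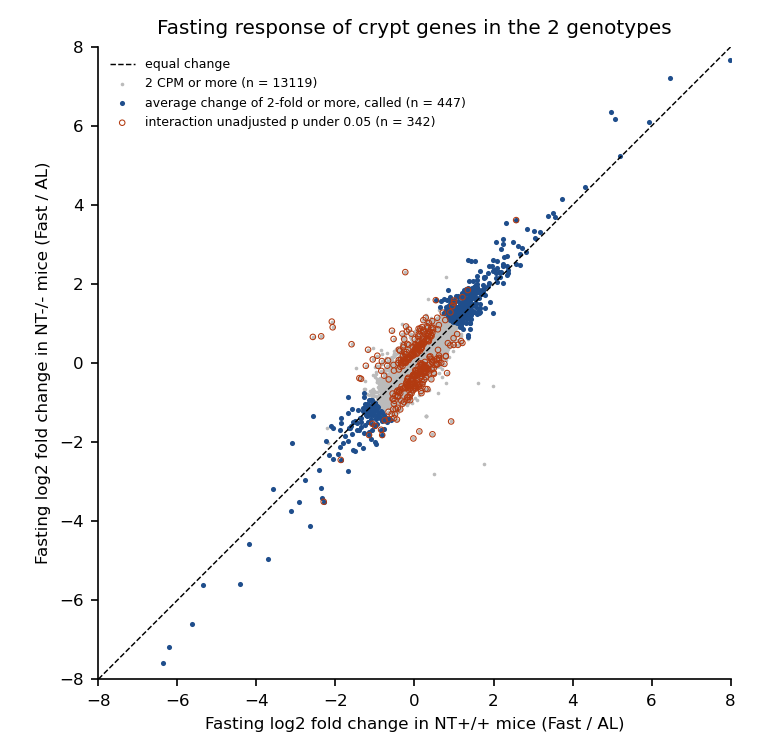
Fasting log2 fold change of each gene in NT+/+ mice (x axis) and in NT-/- mice (y axis), for the 13119 genes of at least 2 CPM. The dashed line marks equal change, blue points are the 447 genes with an average change of at least 2-fold, red rings are the 342 genes with an interaction at an unadjusted p under 0.05, and 4 genes lie outside the axes. Most blue points far from the origin lie on the side of the line where the change was larger in NT-/- mice.

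The size of the response was larger in NT-/- mice for most genes that fasting changed, without a gene being called. Over both genotypes 7039 genes were called for the average effect of fasting (39.4%), and in 64.7% of them the fitted change was larger in NT-/- mice, 64.5% of those higher and 64.8% of those lower after fasting. Among the 447 with an average change of at least 2-fold and at least 2 CPM, the share was 78.3%, with 79.7% of the 315 genes that rose and 75% of the 132 that fell. The median absolute log2 change of these 447 genes was 1.29 in NT+/+ and 1.46 in NT-/- mice, and 17 had a larger and 1 a smaller change in NT-/- mice at an unadjusted p under 0.05. With the mouse of disagreeing labels grouped as NT-/- the first share was 49.1% and the second 62.4%. Genes are not independent replicates, so these shares carry no p.

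The mean log2 CPM of the 315 genes that rose was 2.72, 3.39, 3.26, 3.53 and 3.41 in NT+/+ AL, and 3.42, 3.07, 3.38 and 3.55 in NT-/- AL mice. After fasting it was 4.33, 4.83, 5.01, 5.07 and 4.52 in NT+/+ and 4.87, 5.06, 5.18, 5.15 and 5.03 in NT-/- mice. Fed mice of the genotypes overlapped, and so did fasted mice. Replicates 1 and 5 of NT+/+ Fast, the second being the mouse of disagreeing labels, were the lowest fasted mice, and the NT+/+ Fast SD of 0.32 stood beside 0.12 in NT-/- Fast. For the 132 genes that fell, the fasted mice had 2.70, 2.39, 2.41, 2.20 and 2.62 in NT+/+ and 2.41, 2.50, 1.77, 2.20 and 2.21 in NT-/-. A number in the deposited files' names groups the mice into sets, 4 of which hold a mouse of every group, and the share of the 447 genes with the larger change in NT-/- mice was 46.5%, 71.8%, 68.5% and 77% in sets 1, 2, 4 and 5. Set 1 holds the NT+/+ AL mouse with high mitochondrial rRNA and also replicate 1 of NT+/+ Fast, the lowest fasted mouse for the genes that rose (4.33). In the fit of all mice but that NT+/+ AL mouse the share was 79.4%, beside 78.3% with it. The part of either mouse in the value of set 1 was not tested.

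**Figure D2:**
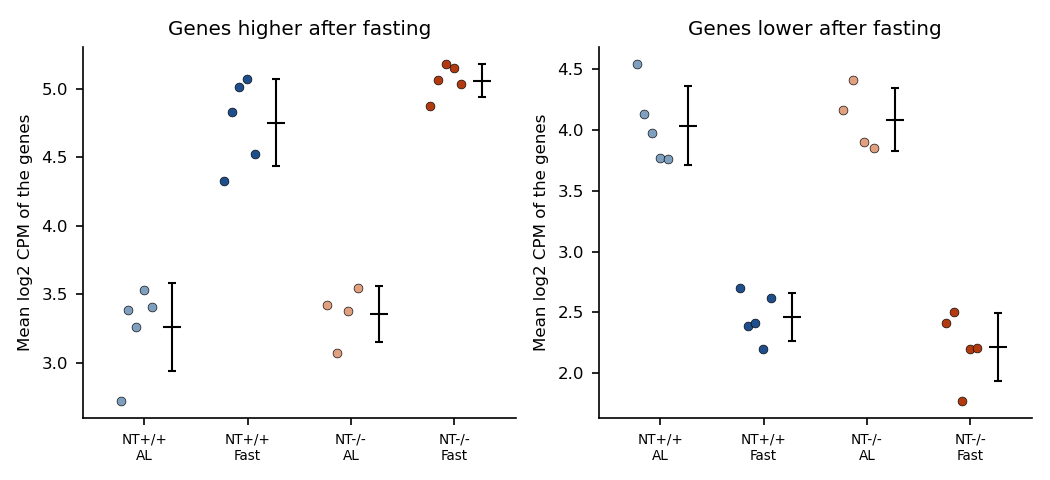
Mean log2 CPM, per mouse, of the genes called for an average fasting change of at least 2-fold, 315 higher (left) and 132 lower (right), chosen on these same mice. Each point is a mouse, and the bar is the group mean with its SD (n = 5, 5, 4 and 5). The 5 NT-/- Fast mice sit between 4.87 and 5.18 on the left, and the 5 NT+/+ Fast mice between 4.33 and 5.07.

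Genes were next read by cell type and pathway, with 53 lists. Each list is described by the number of its tested members above and below 0, the number at an unadjusted p under 0.05, and its median interaction on the log2 scale, beside a median of −0.01 and 48% above 0 over all 17875 genes. No member of any list was called for the interaction. Lists of cell type markers measure RNA in bulk, where fewer cells of a type and less RNA per cell cannot be told apart.

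**Figure D3:**
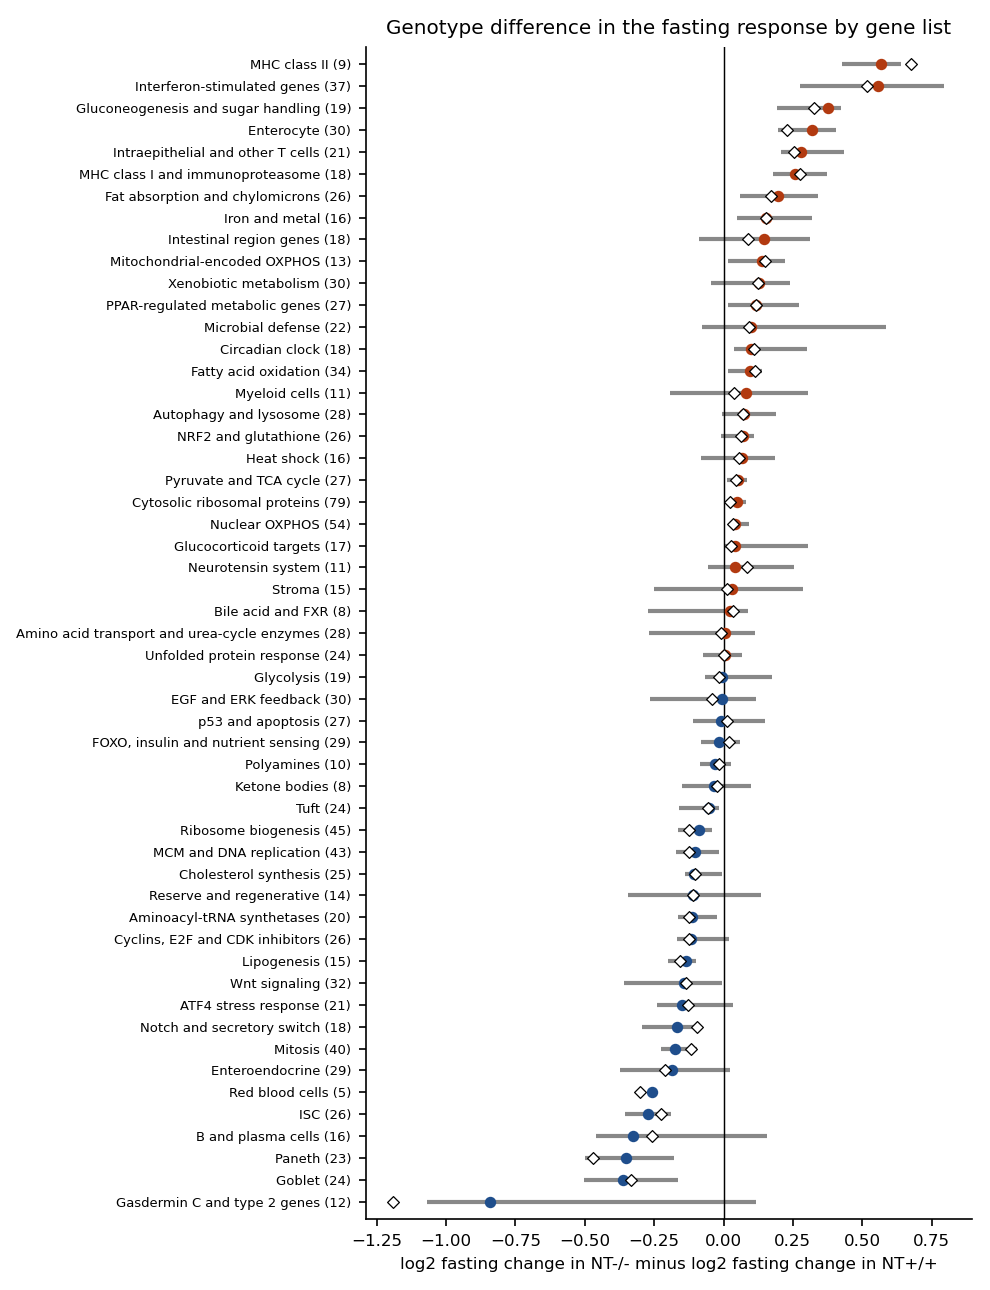
Median interaction of each of the 53 gene lists (filled circles, red above 0 and blue below 0), with the quartiles of its members (grey bars) and the median in the fit with the file-name number as a block (open diamonds). The number of tested members is in parentheses, and the x axis is the log2 fasting change in NT-/- minus that in NT+/+ mice. MHC class II and the interferon-stimulated genes stand highest, and gasdermin C, goblet and Paneth genes lowest.

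Genes of mature enterocytes, the absorptive cells of the villus, had a median interaction of 0.32, with 29 of 30 members above 0 and 1 below 0, and none was called. Fasting raised 21 of them in NT+/+ and 26 in NT-/- mice, with median log2 changes of 0.95 and 1.24, and lowered none in either genotype. At an unadjusted p under 0.05 there was 1 member, above 0. The brush border enzymes Sis (sucrase-isomaltase, 3039 CPM) and Mgam (maltase-glucoamylase, 4658 CPM) had interactions of 0.46 and 0.44, and Apob, the scaffold of chylomicrons, 0.38.

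The difference in the enterocyte list lay in the fasted rather than in the fed mice. Its median NT-/- minus NT+/+ log2 difference was 0.10 in fed and 0.44 in fasted mice. The mean log2 CPM of the list was 8.76, 9.55, 9.83, 9.77 and 9.10 in NT+/+ Fast and 9.59, 10.04, 9.97, 9.83 and 10.01 in NT-/- Fast mice, so that replicates 1 and 5 of NT+/+ Fast were again lowest. By file-name set the interaction of the list mean was −0.21, 0.71, 0.47 and 0.69 in sets 1, 2, 4 and 5, with set 1 against the other 3. The list median was 0.10 with the disputed mouse as NT-/-, 0.41 without replicate 1 of NT+/+ AL, 0.18 without replicate 1 of NT+/+ Fast and 0.46 without set 1. It was above 0 in all 32 alternatives.

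The list of gluconeogenesis and sugar handling had a median of 0.375 with 16 of 19 members above 0, 3 of them and 1 of the 3 below 0 at an unadjusted p under 0.05. Among these were Tkfc, a triokinase of fructose breakdown (0.36 ± 0.16, SE), and Slc37a4, the glucose 6-phosphate transporter (0.38 ± 0.17), while Pck2, mitochondrial phosphoenolpyruvate carboxykinase, was below 0 (−0.30 ± 0.14). Fat absorption and chylomicron genes had 22 of 26 above 0 (median, 0.195), PPAR-regulated genes 21 of 27 (0.12), fatty acid oxidation 27 of 34 (0.10) and xenobiotic metabolism 20 of 30 (0.13), with 0 at an unadjusted p under 0.05 in these 4 lists. Fasting raised the fatty acid oxidation list nearly alike, with 31 of 34 members called higher in each genotype and medians of 0.79 and 0.86. With the disputed mouse as NT-/- the medians were 0.149 for gluconeogenesis and sugar handling, 0.072 for fat absorption, 0.078 for PPAR-regulated genes and 0.037 for xenobiotic metabolism.

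Pdk4, a kinase that shuts off pyruvate oxidation, had 0.336 to 3.65 CPM in NT+/+ AL, 0.586 to 1.40 in NT-/- AL, 30.9 to 107 in NT+/+ Fast and 49.0 to 127 in NT-/- Fast mice, with an interaction of 1.39 (−0.08 to 2.87). Its NT-/- minus NT+/+ log2 difference was −0.81 in fed mice, where counts were low, and 0.59 in fasted mice. The interaction of Pdk4 was 0.90 without replicate 2 of NT+/+ AL, and −0.73, 2.78, 1.68 and 1.23 in sets 1, 2, 4 and 5. Cpt1a, which carries long-chain fatty acids into mitochondria, rose in both genotypes by log2 values of 0.81 and 0.86, and its interaction was 0.05 (−0.37 to 0.47), with the sign differing between alternatives and 0.157 for the disputed mouse as NT-/-.

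All 26 members of the intestinal stem cell (ISC) list were below 0, with a median of −0.27 and 1 at an unadjusted p under 0.05. Fasting raised 3 and lowered 4 members in NT+/+ mice, and raised none and lowered 7 in NT-/- mice, with median log2 changes of 0.02 and −0.24. Lgr5, the receptor that marks dividing stem cells, was 22.7, 19.2, 30.5, 26.9 and 38.6 CPM in NT+/+ AL and 43.5, 34.5, 21.2, 35.3 and 34.4 CPM in NT+/+ Fast mice. In NT-/- mice it was 29.5, 23.2, 39.1 and 32.4 CPM fed and 36.8, 28.6, 25.3, 29.3 and 32.8 CPM fasted. All 4 groups overlapped, and the interaction was −0.32 (95% interval, −0.88 to 0.25, unadjusted p = 0.2601). Ascl2, a stem cell transcription factor, had −0.51 (−1.36 to 0.33), and Olfm4, an abundant secreted stem cell product, −0.28 (−0.90 to 0.34), or 0.06 with the disputed mouse as NT-/-.

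The stem cell member with the smallest p was Kcne3, a potassium channel subunit. It was 116, 62.9, 79.9, 83.1 and 76.9 CPM in NT+/+ AL, 42.1, 23.1, 42.8, 36.0 and 44.1 CPM in NT+/+ Fast, 90.4, 102, 103 and 82.5 CPM in NT-/- AL, and 32.6, 21.9, 27.6, 22.1 and 28.3 CPM in NT-/- Fast mice. Kcne3 fell in both genotypes, by 1.15 and by 1.82 on the log2 scale, and its interaction was −0.67 ± 0.24 (SE, unadjusted p = 0.01115). The interaction of the ISC list mean was −0.29, −0.26, −0.42 and −0.23 in the 4 complete sets, so it had 1 sign in every set. The list median ranged from −0.35 (without replicate 2 of NT-/- AL) to −0.17 (without replicate 1 of NT+/+ Fast) over the 32 alternatives. The median NT-/- minus NT+/+ difference of the list was 0.06 in fed and −0.25 in fasted mice. The list mean log2 CPM nonetheless overlapped between NT+/+ Fast (5.54 to 6.18) and NT-/- Fast mice (5.38 to 5.89). Replicates 1 and 5 of NT+/+ Fast, the lowest of their group for enterocyte genes, were its highest for the ISC list (6.18 and 6.02). They were also its highest for the mitosis (5.93 and 5.87), Wnt signaling (5.23 and 5.04) and Notch lists (4.43 and 4.30), so these lists are not separate observations.

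Goblet cell genes had 23 of 24 below 0, with a median of −0.36 and 3 at an unadjusted p under 0.05, and fasting lowered 4 of them in NT+/+ and 9 in NT-/- mice. Agr2, a disulfide isomerase needed to make mucin, was 575, 364, 481, 342 and 337 CPM in NT+/+ AL and 415, 512, 433 and 327 CPM in NT-/- AL mice. It was 236, 181, 236, 162 and 234 CPM in NT+/+ Fast and 183, 128, 132, 117 and 140.5 CPM in NT-/- Fast mice. Fasted groups overlapped in that replicate 1 of NT-/- Fast was above replicates 2 and 4 of NT+/+ Fast. The interaction of Agr2 was −0.59 ± 0.24 (SE, unadjusted p = 0.02231), and Ern2, an endoplasmic reticulum stress sensor of mucus cells, had −0.52. Muc2, the main gel-forming mucin, had −0.50 (unadjusted p = 0.07056). The list median was −0.201 without replicate 2 of NT-/- AL and −0.546 without replicate 1 of NT-/- Fast. The goblet list mean differed by 0.28 in set 1 and by −0.64, −0.59 and −0.35 in sets 2, 4 and 5.

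Paneth cell genes had 21 of 23 below 0 (median, −0.35), with 1 at an unadjusted p under 0.05, Pla2g2a, a secreted antibacterial phospholipase annotated as a polymorphic pseudogene (−0.73 ± 0.35). Many members are defensin genes of near-identical sequence, whose shares of reads are uncertain. The list mean of replicate 1 of NT-/- Fast, 9.95 log2 CPM, stood above 8.61 to 8.88 in the other 4 mice of its group, and without that mouse the median was −0.68. It was −0.155 without replicate 1 of NT+/+ Fast and −0.146 without the 2 NT-/- Fast mice of lowest depth. Enteroendocrine genes had 21 of 29 below 0 (median, −0.18), and fasting lowered none in NT+/+ and 4 in NT-/- mice. Vwa5b2 had the smallest p among them (−0.52 ± 0.22, unadjusted p = 0.02804). Tuft cell genes had 19 of 24 below 0, a median of −0.05, and a sign that differed between alternatives. With the disputed mouse as NT-/- the enteroendocrine and tuft medians were −0.091 and −0.318.

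**Figure D4:**
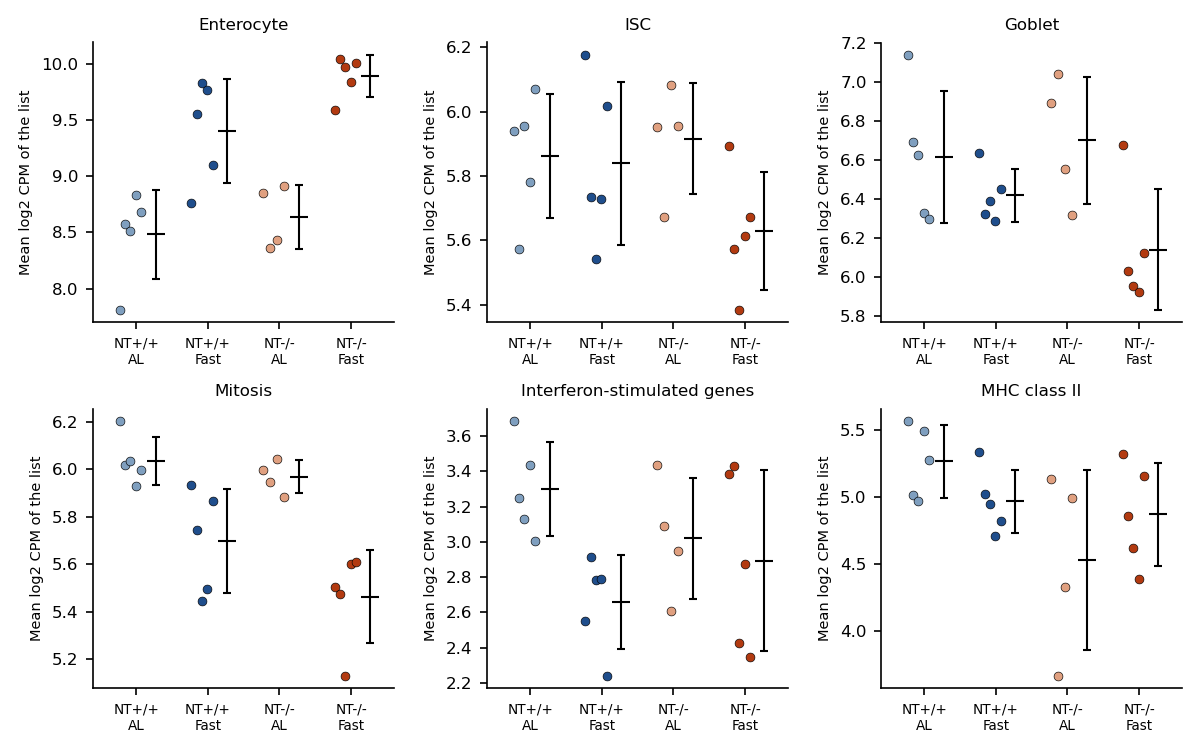
Mean log2 CPM of 6 gene lists in each of the 19 mice. Points are mice and bars the group mean with its SD (n = 5, 5, 4 and 5), and each panel has its own scale that does not start at 0. Enterocyte genes sit higher and mitosis genes lower after fasting in both genotypes, while the fasted mice of the genotypes overlap in all 6 panels.

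Of 40 mitosis genes, fasting lowered 21 in NT+/+ and 32 in NT-/- mice, and the interaction was below 0 for 39 (median, −0.18), with none called. The 2 at an unadjusted p under 0.05 were Pkmyt1, a kinase that restrains mitotic entry (−0.40 ± 0.14), and Espl1, the protease that frees sister chromatids (−0.31). Of 43 genes of MCM and DNA replication, 36 were below 0 (median, −0.10) with 1 at an unadjusted p under 0.05, Pola2, a primase-polymerase subunit (−0.23 ± 0.10). Fasting lowered 27 and 34 of these 43 genes. Mki67, the marker of dividing cells, was 523 to 678 CPM in NT+/+ Fast and 467 to 581 CPM in NT-/- Fast mice, with an interaction of −0.13 (95% interval, −0.40 to 0.13), and Mcm5, a subunit of the replicative helicase, had −0.30 (−0.67 to 0.08). With the disputed mouse as NT-/-, the medians of the 2 lists were −0.05 and −0.02, and the values of Mki67 and Mcm5 −0.007 and −0.161. The MCM list mean differed by 0.034, −0.277, −0.002 and −0.113 in sets 1, 2, 4 and 5. Replicate 3 of NT-/- Fast, whose set holds no NT-/- AL mouse, had the lowest mitosis list mean of its group (5.13 log2 CPM). Without that mouse the mitosis median was −0.09.

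Ribosome biogenesis had 37 of 45 below 0 (median, −0.09), led by Nop56, a core protein of box C/D snoRNPs (−0.33 ± 0.16, unadjusted p = 0.04891). Lipogenesis had 14 of 15 below 0 (median, −0.14). Its smallest p was that of Fasn, the fatty acid synthase, which was 249.2, 175, 252, 204 and 213 CPM in NT+/+ AL, 176, 124, 198, 141 and 174 CPM in NT+/+ Fast, 226, 243, 214 and 212 CPM in NT-/- AL, and 135, 112, 129, 105 and 146 CPM in NT-/- Fast mice. Fasn fell in both genotypes, and its interaction was −0.41 ± 0.18 (SE, unadjusted p = 0.034). Cytosolic ribosomal proteins stood on the other side with 71 of 79 above 0 and a median of only 0.05. With the disputed mouse as NT-/- the medians of these 3 lists were −0.054, −0.082 and 0.081.

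For Wnt signaling 25 of 32 members were below 0 (median, −0.14). Fasting raised 9 in NT+/+ and 3 in NT-/- mice, and lowered 1 and 2. Nkd1, a Wnt target that feeds back on the pathway, had means of 6.25 ± 1.01 CPM in NT+/+ AL and 14.5 ± 4.11 CPM in NT+/+ Fast (SD, n = 5 each), against 8.09 ± 1.72 CPM in NT-/- AL (SD, n = 4) and 11.5 ± 2.73 CPM in NT-/- Fast (SD, n = 5). It rose in NT+/+ mice (log2 1.21, adjusted p = 0.0002223, edgeR) and was not called in NT-/- mice (0.51, adjusted p = 0.07872), with an interaction of −0.70 ± 0.28 (unadjusted p = 0.02197, adjusted p = 0.9998). The disputed mouse had the highest Nkd1 level of all, 20.2 CPM, and with it as NT-/- the interaction was −0.379 and the Wnt median −0.094. Notch and secretory switch genes had 15 of 18 below 0 (median, −0.17), none at an unadjusted p under 0.05. Both lists were below 0 in all 32 alternatives and in all 4 complete sets.

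Interferon-stimulated genes, which act against viruses and are switched on by interferons, had 35 of 37 members above 0 with a median interaction of 0.56. At an unadjusted p under 0.05 there were 7, all above 0, or 18.9% of the list beside 1.2% of all genes. Fasting lowered 10 of them in NT+/+ and 3 in NT-/- mice and raised none in either, with median log2 changes of −0.57 and −0.07. The promoters of 3 members are shown because they carry the element that this pathway binds, as RefSeq gives them for GRCm38.p6, over the 150 bases before the start and in the direction of the gene. Capitals mark matches to the interferon-stimulated response element core GAAANNGAAA on either strand, in Ifit1bl1 (chr19:34599428-34599577, minus strand), Igtp (chr11:58199406-58199555, plus strand) and Ifit1 (chr19:34640739-34640888, plus strand), the members with the smallest interaction p among those with a match.
Ifit1bl1: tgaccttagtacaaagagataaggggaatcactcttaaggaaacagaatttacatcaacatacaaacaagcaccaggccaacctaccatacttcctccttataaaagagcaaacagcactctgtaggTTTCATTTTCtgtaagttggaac
Igtp: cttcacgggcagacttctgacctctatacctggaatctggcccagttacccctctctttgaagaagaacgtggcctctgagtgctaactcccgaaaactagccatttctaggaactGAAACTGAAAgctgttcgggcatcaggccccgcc
Ifit1: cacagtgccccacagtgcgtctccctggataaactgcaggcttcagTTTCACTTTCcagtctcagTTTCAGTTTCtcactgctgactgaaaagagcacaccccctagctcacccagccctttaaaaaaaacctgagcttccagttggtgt

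The match began 23 bases before the start in Ifit1bl1 and 34 bases before it in Igtp, and Ifit1 held 2 matches, the first 104 bases before the start. Of the 37 members, 25 matched a RefSeq promoter of 300 bases (250 before and 50 after the start), and 18 of these (72%) held the element, against 3.99% of the 27025 genes with such a promoter. Such genes are known by this element, so its frequency here is background, and the 18 members with it had a median interaction of 0.51, beside 0.40 for the 7 without it. Ifit1bl1, of the antiviral IFIT family, averaged 27.4 and 11.7 CPM in fed and fasted NT+/+ mice and 16.7 and 16.3 CPM in NT-/- mice (interaction, 1.16 ± 0.43). Igtp, an immunity-related GTPase, had 1.13 ± 0.49, and Ifit1, which binds viral RNA, 1.39 ± 0.63.

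Mx1, an antiviral GTPase, was 1.97 to 2.71 CPM in NT+/+ AL, 0.616 to 1.16 CPM in NT+/+ Fast, 1.20 to 2.50 CPM in NT-/- AL, and 0.694 to 2.04 CPM in NT-/- Fast mice. Every NT+/+ Fast mouse was below every NT+/+ AL mouse, whereas fed and fasted NT-/- mice overlapped. Mx1 fell with fasting in NT+/+ mice (log2 −1.54, adjusted p = 0.0005581, edgeR) and was not called in NT-/- mice (−0.30, adjusted p = 0.4922). Its interaction, the smallest p of the list, was 1.24 ± 0.40 (SE, unadjusted p = 0.005789, adjusted p = 0.9998). Gbp6 (0.95 ± 0.39) and Gbp7 (0.86 ± 0.39), guanylate-binding proteins, were also among the 7.

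The interferon list varied widely between mice of 1 group. Its mean log2 CPM was 3.69, 3.25, 3.13, 3.44 and 3.01 in NT+/+ AL, and 2.55, 2.92, 2.79, 2.79 and 2.24 in NT+/+ Fast mice. In NT-/- mice it was 3.44, 3.09, 2.61 and 2.95 fed and 3.39, 3.43, 2.43, 2.88 and 2.35 fasted. Every NT+/+ Fast mouse was below every NT+/+ AL mouse, whereas replicates 1 and 2 of NT-/- Fast were at the level of fed mice and replicates 3 and 5 at that of fasted NT+/+ mice. Set by set the interaction was 1.08, 0.67, 0.91 and 0.17, above 0 in all 4. The list median was 0.26 with the disputed mouse as NT-/-, 0.33 without replicate 1 of NT-/- Fast, 0.42 without replicate 1 of NT+/+ AL, and 0.36 without the 2 NT-/- Fast mice of lowest depth.

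Antigen presentation genes were above 0 as well. All 9 MHC class II genes, which present peptides to CD4 T cells, were above 0 (median, 0.57), 2 at an unadjusted p under 0.05. H2-DMb1, which helps load peptide, was 34.2, 26.5, 27.3, 38.2 and 27.5 CPM in NT+/+ AL and 40.8, 43.2, 25.3, 31.0 and 35.3 CPM in NT+/+ Fast mice. In NT-/- mice it was 29.5, 11.2, 17.7 and 16.9 CPM fed and 43.2, 45.2, 29.6, 23.2 and 37.2 CPM fasted, so that 3 of the 4 fed NT-/- mice were below every other mouse. Its interaction was 0.72 ± 0.32 (SE, unadjusted p = 0.03391), and that of H2-Aa, a class II alpha chain, 0.86 ± 0.38. The median NT-/- minus NT+/+ difference of the list was −0.64 in fed and −0.04 in fasted mice, which places its interaction in the fed groups. Without replicate 2 of NT-/- AL, whose list mean was the lowest of all mice, the median was 0.37.

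MHC class I and immunoproteasome genes had 17 of 18 above 0 (median, 0.26), with B2m, the class I light chain, at 0.37 ± 0.17 (unadjusted p = 0.0396). Fasting lowered 3 and raised none of these genes in NT+/+ mice, and lowered 2 and raised 5 in NT-/- mice. Class I, class II and interferon lists were above 0 in all 4 sets and in all 32 alternatives.

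RNA of immune cells was present in the crypts, with Ptprc, the marker of white blood cells, at a mean of 37.8 CPM. T cell genes had 19 of 21 tested members above 0 (median, 0.28), with 0 at an unadjusted p under 0.05, and the median was 0.029 without replicate 4 of NT+/+ AL, 0.646 without replicate 4 of NT+/+ Fast and 0.132 with the disputed mouse as NT-/-. Gzma, a granzyme of cytotoxic lymphocytes, had the smallest p (0.57 ± 0.44, unadjusted p = 0.2106). The T cell list mean was 1.15 to 2.73 log2 CPM in NT+/+ AL, 1.34 to 3.21 in NT+/+ Fast, 1.73 to 2.29 in NT-/- AL, and 2.41 to 2.85 in NT-/- Fast mice. B and plasma cell genes had 11 of 16 below 0 (median, −0.33), with list means of 1.49 to 2.42, 0.77 to 2.13, 0.63 to 2.94 and 0.17 to 1.98 log2 CPM in the same order of groups, and the median was 0.63 without replicate 4 of NT-/- AL and −0.539 with the disputed mouse as NT-/-. The interaction of the B and plasma cell list mean was above 0 in all 4 complete sets (0.541, 0.571, 0.355 and 0.188), opposite to the median of its members. Of 23 listed myeloid genes only 11 passed the filter on low counts, 6 above 0, with list means of 1.47 to 2.26, 1.62 to 2.12, 1.66 to 2.06 and 1.55 to 2.18. The part of immune cells in the interferon and MHC results was not tested.

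Microbial defense genes had a median of 0.10 with 14 of 22 above 0, which was 0.024 without replicate 2 of NT-/- Fast. Nos2, the inducible nitric oxide synthase, was 14.0, 22.0, 39.7, 25.7 and 38.9 CPM in NT+/+ AL, 17.4, 44.4, 20.6, 15.2 and 21.8 CPM in NT+/+ Fast, 6.14, 0.758, 11.4 and 19.1 CPM in NT-/- AL, and 12.9, 172, 17.6, 16.1 and 15.7 CPM in NT-/- Fast mice. Its interaction of 2.53 ± 1.01 (SE, unadjusted p = 0.02136), or 0.978 without replicate 2 of NT-/- Fast, thus included a single fasted mouse far above all others and a single fed mouse below 1 CPM. The bactericidal lectins Reg3b and Reg3g had interactions of 1.31 ± 0.64 and 1.18 ± 0.62, with unadjusted p = 0.05349 and 0.07334. Gasdermin C and type 2 genes, of which fasting lowered 7 of 12 in NT+/+ and 6 in NT-/- mice, had 8 of 12 below 0 and a median of −0.84, which was −0.005 without replicate 2 of NT-/- AL.

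Among all genes of at least 2 CPM, the 12 of smallest p above 0 included Tnfsf10, Nit2, Nampt, Eif2ak1, Gclm, Bmf, Htatip2, mt-Rnr2, Thrb, Gtf2b and Rnf128. Their unadjusted p were 0.001769 to 0.007592, each with an adjusted p of 0.9998 (edgeR). Tnfsf10 (ENSMUSG00000039304; chr3:27317028-27342427, GRCm38), the death ligand TRAIL, was 94.5, 94.0, 92.1, 107 and 105 CPM in NT+/+ AL and 65.2, 67.5, 60.4, 70.4 and 77.2 CPM in NT+/+ Fast mice. In NT-/- mice it was 97.5, 68.8, 79.0 and 96.4 CPM fed and 86.2, 76.7, 87.4, 74.9 and 87.3 CPM fasted. Its decrease was called in NT+/+ mice (log2 −0.53, adjusted p = 0.0003854) and not in NT-/- mice (−0.05, adjusted p = 0.7626), with an interaction of 0.48 ± 0.13 (SE). Thrb, a thyroid hormone receptor, had the same arrangement, with −0.41 in NT+/+ and 0.005 in NT-/- mice.

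For 8 of the 12 the increase was larger in, or called in, NT-/- mice. Nampt (ENSMUSG00000020572; chr12:32819545-32853349), the rate-limiting enzyme of NAD salvage, was 51.3, 42.6, 45.0, 49.3 and 46.9 CPM in NT+/+ AL, 50.9, 60.5, 74.5, 58.0 and 54.5 CPM in NT+/+ Fast, 46.3, 42.2, 39.0 and 52.3 CPM in NT-/- AL, and 72.7, 75.8, 106, 80.1 and 84.4 CPM in NT-/- Fast mice. Fasted mice of the genotypes overlapped in 1 pair of values. Nampt rose in both genotypes, by log2 values of 0.34 and 0.90, and its interaction was 0.56 ± 0.16 (SE, unadjusted p = 0.00262). Nit2, an omega-amidase (0.40 ± 0.12), Gclm, the modifier subunit of the enzyme that limits glutathione synthesis (0.36 ± 0.12), Htatip2 (0.43 ± 0.14) and Gtf2b, a general transcription factor (0.34 ± 0.12, or 0.203 with the disputed mouse as NT-/-), also rose in both. Bmf, a pro-apoptotic BH3-only protein, was called higher in NT-/- mice (1.15) and not in NT+/+ mice (0.28), with an interaction of 0.86 ± 0.28, as were Eif2ak1, a stress kinase of translation (0.33 ± 0.10), and Rnf128, a ubiquitin ligase (0.34 ± 0.12). mt-Rnr2, the large mitochondrial rRNA, was 9208 CPM in replicate 1 of NT+/+ AL and 248.9 to 2043 CPM in the other 18 mice, and its interaction of 3.23 was 1.35 without that mouse.

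The 12 of smallest p below 0 were Tead2, Fkbp11, Slc25a23, Vcp-rs, Lama5, Large2, Slit1, Scgb2b17, Cit, Sypl2, Zfp513 and Ggcx, with unadjusted p of 0.0002937 to 0.007775. Tead2 (ENSMUSG00000030796; chr7:45215753-45233644), a DNA-binding partner of the growth regulators YAP and TAZ, was 4.32, 3.07, 3.70, 4.11 and 3.82 CPM in NT+/+ AL and 5.10, 4.23, 4.27, 4.97 and 4.48 CPM in NT+/+ Fast mice. It was 4.51, 4.71, 5.83 and 3.83 CPM in NT-/- AL and 3.204, 2.61, 2.43, 3.55 and 3.17 CPM in NT-/- Fast mice. Every NT-/- Fast mouse was below every NT+/+ Fast and every NT-/- AL mouse. The decrease in NT-/- mice was called (log2 −0.66, adjusted p = 0.004173), the change in NT+/+ mice was not (0.28, adjusted p = 0.1855), and the interaction was −0.93 ± 0.21 (SE, unadjusted p = 0.0002937, adjusted p = 0.9998).

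Fkbp11 (ENSMUSG00000003355; chr15:98724366-98728198), a folding enzyme of secretory cells, was 5.85, 4.32, 7.002, 4.21 and 5.37 CPM in NT+/+ AL, 2.67, 2.39, 3.70, 2.80 and 3.53 CPM in NT+/+ Fast, 6.70, 6.76, 6.07 and 4.42 CPM in NT-/- AL, and 1.82, 1.59, 1.62, 1.58 and 1.80 CPM in NT-/- Fast mice. The fasted genotypes did not overlap and the fed ones did. It fell in both, by 0.82 and by 1.82 on the log2 scale, with an interaction of −1.01 ± 0.25. Lama5 (ENSMUSG00000015647; chr2:180176373-180225859), a laminin of the basement membrane, was 28.6, 23.9, 41.4, 30.9 and 38.0 CPM in NT+/+ AL and 62.6, 57.6, 50.3, 52.8 and 58.2 CPM in NT+/+ Fast mice, against 39.7, 30.6, 40.6 and 29.7 CPM in NT-/- AL and 44.6, 37.7, 42.6, 41.2 and 31.8 CPM in NT-/- Fast mice. Only NT+/+ Fast stood apart. Lama5 rose in NT+/+ mice (0.79) and was not called in NT-/- mice (0.17), with an interaction of −0.62 ± 0.19.

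Slc25a23, a mitochondrial carrier, rose in both genotypes, by 0.99 and 0.46. Large2, a glycosyltransferase of dystroglycan, rose in NT+/+ mice (0.45) and was not called in NT-/- mice (0.01). Cit, the citron kinase of cytokinesis, fell in both (−0.49 and −0.83), while Slit1, Sypl2, Zfp513, Ggcx, Scgb2b17 and the pseudogene Vcp-rs were called lower in NT-/- mice and not called in NT+/+ mice. Vcp-rs shares sequence with Vcp, so its reads are uncertain. Scgb2b17, a secretoglobin, was 2.12 to 13.8 CPM in NT+/+ Fast and 1.39 to 3.22 CPM in NT-/- Fast mice, and in sets 1, 2, 4 and 5 its difference was 0.02, 0.01, −4.52 and −1.81. With the disputed mouse as NT-/- the interactions of Cit, Slit1 and Scgb2b17 were −0.193, −0.451 and −0.956 in place of −0.34, −0.73 and −2.26.

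**Figure D5:**
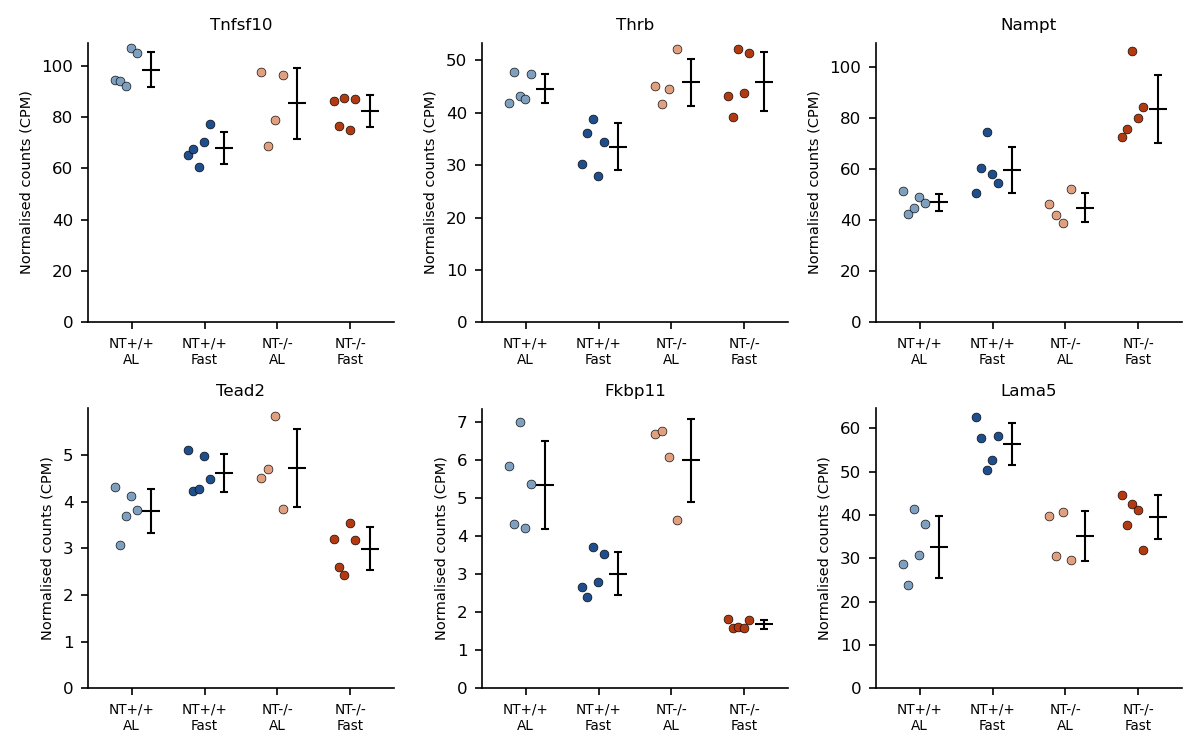
Normalised counts (CPM, axes starting at 0) of 6 of the genes with the smallest interaction p in each of the 19 mice. Points are mice and bars the group mean with its SD (n = 5, 5, 4 and 5). Tnfsf10 and Thrb are lower after fasting in the NT+/+ groups, Nampt is highest and Tead2 and Fkbp11 lowest in NT-/- Fast, and Lama5 is highest in NT+/+ Fast.

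Of the 214 genes above 0 at an unadjusted p under 0.05, 81 were called higher after fasting in NT-/- mice and not called in NT+/+ mice, 41 were called lower in NT+/+ mice and not called in NT-/- mice, 39 were called higher in both, 1 was called lower in both and 52 were called in neither. Of the 271 below 0, 98 were called lower in NT-/- mice and not called in NT+/+ mice, 47 were called higher in NT+/+ mice and not called in NT-/- mice, 30 were called lower in both, 7 higher in both, and 88 in neither, and 1 was called in opposite directions. Over all 17875 genes, 726 were called higher and 841 lower in NT-/- mice alone, and 493 higher and 437 lower in NT+/+ mice alone. In both genotypes 1516 were called higher and 1415 lower, and 12446 were called in neither. The sign of the interaction is set by the same fasting changes, so this split follows in part from the choice of genes.

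Several lists had medians near that of all genes. Glycolysis (−0.01, 9 of 19 above 0), amino acid transport and urea-cycle enzymes (0.01, 14 of 28), the unfolded protein response (0.00, 12 of 24), FOXO, insulin and nutrient sensing (−0.02, 13 of 29), EGF and ERK feedback (−0.01, 14 of 30), p53 and apoptosis (−0.01, 13 of 27) and bile acid and FXR genes (0.02, 4 of 8) lay on both sides of 0. Within them Erbb3, a receptor of the EGF family, had 0.39 ± 0.15 (unadjusted p = 0.0198), and Slc1a5, a glutamine transporter, −0.39 ± 0.15 (0.01927). Glucocorticoid targets had a median of 0.04, circadian clock genes 0.10 and nuclear OXPHOS genes 0.04. ATF4 stress response genes, switched on by amino acid shortage, had 14 of 21 below 0 (median, −0.15), and fasting raised 6 in NT+/+ and 2 in NT-/- mice. That median was −0.007 with the disputed mouse as NT-/-. Stroma genes had 9 of 15 above 0 and a median of 0.03.

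With the file-name number as a block, 0 genes were called for the interaction, the smallest adjusted p was 0.8547, and 1013 genes had an unadjusted p under 0.05, 416 above 0 (2.33%) and 597 below 0 (3.34%). Of the 485 genes without the block, 450 were among them. The block lowered the median standard error from 0.17 to 0.14, and the share of all genes at an unadjusted p under 0.05 went from 2.71% to 5.67%. In the blocked fit the members at an unadjusted p under 0.05 went from 7 to 10 of 37 in the interferon list, from 2 to 7 of 9 in MHC class II, from 1 to 5 of 18 in MHC class I, from 3 to 7 of 24 in goblet, from 1 to 6 of 23 in Paneth, from 1 to 3 of 26 in ISC and from 1 to 5 of 45 in ribosome biogenesis genes. Not all lists gained such members. The number stayed at 2 of 40 for mitosis and at 1 of 30 for enterocyte genes, and went from 2 to 1 of 22 for microbial defense genes. Blocked list medians were 0.52 for interferon, 0.68 for MHC class II, 0.23 for enterocyte, −0.23 for ISC, −0.33 for goblet and −0.12 for mitosis genes. Neither the labels nor the methods say what the number stands for, and all mice with a sex label within a set had the same sex.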

How the data were processed

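The authors depleted ribosomal RNA from crypt RNA, read it single-end, trimmed with Trimmomatic 0.39 and quantified Ensembl GRCm38 transcripts with RSEM (version not given in the sources used here). Their deposited files hold expected counts, which are not normalized, and deposited TPM and FPKM, which were not used. Expected counts were rounded, normalized by TMM and tested over 17875 genes passing filterByExpr (edgeR 4.0.16, R 4.3.3; quasi-likelihood test, Benjamini-Hochberg, threshold 0.05) in 1 fit with a coefficient per group, 15 residual degrees of freedom and no covariate. Standard errors are the log2 difference over the square root of F. List levels are means of log2 CPM with a prior count of 2. Total counts of 9059418 to 35068669 per mouse set the precision. Coordinates are from the GENCODE annotation of GRCm38. The fit was also run on simulated counts of independent mice. These lacked the shared deviation of mice of a file-name set, so that run does not cover it. No libraries were duplicates: chi-square per gene was 15.2 to 218 over 36 within-group pairs. p-values measure the spread between mice.

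The comparison, the lists and the tests were chosen with earlier results of these data known. Genes named are the 12 of smallest unadjusted p in each direction at 2 CPM or more with an established symbol, the smallest-p member of a described list, 8 set names (Nts, Lgr5, Ascl2, Olfm4, Mki67, Mcm5, Cpt1a and Pdk4), and list members chosen after their values were seen. The smallest-p member is left unnamed for lists given only by their counts. Some genes that the rule names are not reported here.

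Deviations from group means correlated in 27 same-set pairs of mice (mean r = 0.227, lowest 0.067, over 0.1 in 24), against −0.056 in other pairs, and over 0.1 in 27 of 27 pairs (lowest 0.108) for genes at 2 CPM or more. Mice of a set thus deviated together, but no source says what the number marks, and not every pair passed 0.1 over all genes, so the block is given beside the results as an alternative. Other alternatives were upper quartile or no scaling factors, DESeq2 1.42.0, the likelihood ratio test, other count filters, a title-number block, sex as a covariate (without the mouse lacking a sex label), the disputed mouse as NT-/-, and each mouse left out. Chosen after the data were seen were leaving out the 2 mice of lowest depth, leaving out set 1, and the block without replicate 1 of NT+/+ AL.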

Additional observations from a re-analysis of the deposited data

Results flagged for a closer look

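In 35 genes and lists given mouse by mouse, 140 groups of 4 or 5 mice were examined for 1 mouse far from the rest of its group. The measure was the ratio of the gap to the nearest mouse to the group's range. Of the 140 groups 11 stood out, where chance gives about 1 in 20 for independent groups. The genes and lists were picked for the text and share the same mice, so that rate is only a rough guide. The ratio was 0.972 for mt-Rnr2 in NT+/+ AL replicate 1 (9208 CPM, next 741) and 0.97 for Nos2 in NT-/- Fast replicate 2 (172 CPM, next 17.6). For Nos2 in NT+/+ Fast replicate 2 it was 0.772 (44.4 CPM, next 21.8), and for B2m in NT-/- Fast replicate 2 it was 0.75 (489 CPM, next 369.6).

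Replicate 1 of NT-/- Fast was high for Paneth genes (ratio 0.8, mean of 9.95 log2 CPM, next 8.88), goblet genes (0.735, mean of 6.67, next 6.12) and Slc25a23 (0.86, 24.5 CPM, next 18.5). Replicate 3 of NT-/- Fast was low for mitosis genes (0.714, mean of 5.13 log2 CPM, next 5.47) and for Cit (0.732, 36.3 CPM, next 44.4). Replicate 4 of NT-/- AL was high for Mx1 (0.885, 2.50 CPM, next 1.35) and for Nts (0.88, 0.746 CPM, next 0.216).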

How the results depend on the processing

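Each result was recomputed under 32 alternatives, 19 of which left out 1 mouse. Genes called for the interaction were 0 in all but the likelihood ratio test (1). Of 2425 gene values 2418 kept their direction, and of 1696 list medians 1550 kept their sign. Most of these genes were chosen for a small p in these same mice, and the alternatives share most of the counts. A kept direction was therefore likely from the start and is no separate support. The values that changed direction were those of Cpt1a, in 6 alternatives, and Olfm4, in 1, both set names not chosen by p. The genotype difference at unadjusted p under 0.05 counted 485 genes, and 744 with library totals as the only scaling, 1066 with no filter, 1013 with the file-name number as a replicate block, 851 with the title number as a block, 778 without set 1 and 1048 with the block and without replicate 1 of NT+/+ AL, and 321 (without NT-/- AL replicate 3) to 811 (without NT-/- AL replicate 4) with 1 mouse left out. NT-/- Fast replicate 1 also moved it, to 797.

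The share of genes with the larger change in NT-/- mice was 57.6% (without NT+/+ Fast replicate 5) to 68% with 1 mouse left out, and 49.1% with that mouse, the disputed one, as NT-/-. That grouping gave a median of −0.082 for amino acid transport and 0.064 for Olfm4. Library totals gave −0.023 for pyruvate and TCA cycle, −0.087 for FOXO, insulin and nutrient sensing and −0.02 for Cpt1a. Without the 2 mice of lowest depth the neurotensin system median was 0.137. With 1 mouse left out, the ranges were −0.05 to 0.03 for amino acid transport, −0.641 to 0.634 for B and plasma cells, −1.311 to −0.005 for gasdermin C, −0.003 to 0.443 for glucocorticoid targets, −0.011 to 0.113 for the neurotensin system, −0.324 to 0.039 for reserve and regenerative genes, −0.044 to 0.138 for Cpt1a and −0.414 to −0.12 for Olfm4. The cause was not tested. Mice correlated best with their own file-name set in 18 of 19 cases, and the block changed no call of the interaction. Total counts limit the NT-/- values of Nts, which rest on 3 to 15 counts per mouse.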

Other observations

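Further lists lay as follows. Intestinal region genes had 10 of 18 above 0 (median, 0.145, or −0.04 with the disputed mouse as NT-/-). Pyruvate and TCA cycle genes had 23 of 27 above 0 (0.05), heat shock genes 11 of 16 (0.07) and the neurotensin system 7 of 11 (0.04). Ketone body genes had 6 of 8 below 0 (−0.03), polyamine genes 6 of 10 (−0.03) and red blood cell genes 4 of 5 (−0.26). Iron and metal genes had 13 of 16 above 0 (median, 0.15), with Cybrd1, a duodenal iron reductase, among those below 0, at −0.73 ± 0.33 (SE, unadjusted p = 0.03557). Mitochondrial-encoded OXPHOS genes had 11 of 13 above 0 (median, 0.14), autophagy and lysosome genes 20 of 28 (0.07), and NRF2 and glutathione genes 18 of 26 (0.07). Aminoacyl-tRNA synthetases had 16 of 20 below 0 (median, −0.11), cholesterol synthesis genes 19 of 25 (−0.11), and genes of cyclins, E2F and CDK inhibitors 19 of 26 (−0.12). Reserve and regenerative stem cell genes had 9 of 14 below 0 (median, −0.11), and their smallest p was that of Krt7, at −0.42 ± 0.21 (unadjusted p = 0.05962). Against most of that list, Clu, a marker of revival stem cells, had an interaction of 0.91 (unadjusted p = 0.09465). Clu rose after fasting by log2 values of 2.24 in NT+/+ and 3.14 in NT-/- mice, and was chosen after its value was seen. Adjusted p was 0.9998 for these genes (edgeR).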
